A study of Mus musculus with 6 samples.

Results

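The vascular growth factor genes examined were the VEGF ligand Vegfa, its receptors Flt1 and Kdr, the co-receptors Nrp1 and Nrp2, the angiopoietin ligands Angpt1 and Angpt2, and the angiopoietin receptor genes Tek and Tie1. They were picked by gene symbol, with no measured value in the rule, but with earlier results of these data known. All 9 were found among the 32285 genes of the deposited matrices. The matrices came from mouse kidney sections on 10x Genomics Visium slides, on which each barcoded spot captures RNA from a small area that can hold several cells. There were 6 libraries, each the only one of its group, and spots of a section are not replicates. The question set by the design was how the kidney changes as Alport syndrome advances and after hEV treatment.

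WT was a kidney of genotype B6C57, of an age that the labels leave out. The 2m AS and 5m AS libraries were kidneys of genotype B6.Cg-Col4a5tm1Yseg, a line that carries an altered Col4a5, a type IV collagen gene of the kidney filter, at 2 and 5 months. The early treated and late treated libraries were 5m AS kidneys of the same genotype and age that had received hEV, with no dose or dates in the labels. The mixed library held a WT female and a heterozygous female together, labelled B6C57 and B6.Cg-Col4a5tm1Yseg. Nothing in the labels limited the altered gene to a cell type.

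VEGF-A is made by podocytes, the epithelial cells that wrap the glomerular capillaries, and by tubule cells, and it signals to neighbouring endothelium. KDR (VEGFR2) is its main signalling receptor there, FLT1 (VEGFR1) binds the same ligand tightly and can act as a decoy, and the neuropilins NRP1 and NRP2 are co-receptors. Angiopoietin-1 activates the endothelial receptor TEK (TIE2) and stabilises vessels, angiopoietin-2 is a context-dependent antagonist of it, and TIE1 is a related receptor that modulates TEK.

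Spots with at least 500 UMIs (unique molecular identifiers, each 1 counted RNA molecule) were sorted by marker genes that include none of the 9. Podocyte-rich spots had at least 5 UMIs of 8 podocyte genes (Nphs1, Synpo and Wt1 among them) per 10000 UMIs, and tubule spots had under 2, with under 5 UMIs of 4 smooth muscle genes per 10000. There were 279, 151, 219, 384, 322 and 375 podocyte-rich spots and 3235, 2788, 1402, 2482, 1994 and 2447 tubule spots in WT, 2m AS, 5m AS, early treated, late treated and mixed, the order used throughout. Library totals ran from 48940875 UMIs in early treated to 91976637 in 2m AS, and the median UMIs per spot from 12736 to 28433. WT and 5m AS were counted with Space Ranger 1.2.1 and the others with 1.3.1, so in comparisons across these sets the software version and the group cannot be told apart. Visium barcodes name slide positions, and 486 of them occurred in all 6 libraries. Col4a5 itself stood at 11.9 scaled CPM in WT, 13.2 in mixed and 3.39 to 6.54 in the 4 AS libraries. Scaled CPM are UMIs per 1000000 after TMM scaling, which sets the bulk of genes level between libraries. The factors were set separately for whole sections, for spot classes and for the finer bins used below. Levels therefore compare only within each of these sets.

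The upstream sequences of the main ligand and of 3 endothelial receptor genes are shown as examples of genes higher in podocyte-rich than in tubule spots. Tie1, also higher there, is not shown. Each run is the 250 bases before the most upstream RefSeq transcription start (table of build GRCm38.p6), read 5′ to 3′ on the gene's strand. Vegfa had 2 starts in that table. The windows are chr17:46032378-46032627, minus strand, for Vegfa, chr5:147726012-147726261, minus strand, for Flt1, chr5:75978456-75978705, minus strand, for Kdr, and chr4:94739039-94739288, plus strand, for Tek. Capitals mark the GC box GGGCGG in Vegfa and the ETS core forms CCGGAA and CAGGAA, on either strand, in the receptor genes. Flt1 has neither of these forms.
Vegfa: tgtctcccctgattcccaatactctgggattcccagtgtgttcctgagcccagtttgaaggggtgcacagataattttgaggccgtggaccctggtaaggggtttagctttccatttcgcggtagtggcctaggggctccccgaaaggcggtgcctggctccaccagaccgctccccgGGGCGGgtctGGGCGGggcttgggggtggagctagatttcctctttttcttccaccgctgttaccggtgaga
Flt1: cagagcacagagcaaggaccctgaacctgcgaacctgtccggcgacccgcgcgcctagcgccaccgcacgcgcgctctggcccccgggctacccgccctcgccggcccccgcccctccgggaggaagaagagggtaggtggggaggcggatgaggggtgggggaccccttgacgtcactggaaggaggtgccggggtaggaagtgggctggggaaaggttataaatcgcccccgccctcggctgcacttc
Kdr: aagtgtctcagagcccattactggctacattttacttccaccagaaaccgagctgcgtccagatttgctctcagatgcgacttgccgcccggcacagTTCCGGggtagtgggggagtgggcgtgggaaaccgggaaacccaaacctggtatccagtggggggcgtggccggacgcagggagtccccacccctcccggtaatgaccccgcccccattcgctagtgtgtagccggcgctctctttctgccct
Tek: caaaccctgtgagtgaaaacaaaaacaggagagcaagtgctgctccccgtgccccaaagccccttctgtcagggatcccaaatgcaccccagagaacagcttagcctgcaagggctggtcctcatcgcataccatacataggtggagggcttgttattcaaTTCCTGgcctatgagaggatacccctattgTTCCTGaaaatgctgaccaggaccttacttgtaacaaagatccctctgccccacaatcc
GC boxes numbered 2 in Vegfa, 3 in Flt1, 2 in Kdr and 0 in Tek, capitalised only in Vegfa, and 32.7% of the 32851 promoter windows of this length in the table hold at least 1. Of the sequences bound by endothelial transcription factors of the ETS family, only the 2 forms CCGGAA and CAGGAA were searched. These numbered 1 in Kdr, 2 in Tek, 0 in Flt1 and 1 in Vegfa, against a match in 35.1% of all windows. Other runs that hold the shorter GGAA, such as those in the Flt1 window, were not counted. The core of the hypoxia response element, ACGTG or GCGTG on either strand, was found 2 times in Kdr, 1 time in Flt1 and 0 times in Vegfa and Tek. Of all windows 38.6% hold a match. Sequence outside these 250 bases was not searched, so a count of 0 says nothing about elements further away. Matches of different motifs could overlap, and a match is only a run of letters.

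In podocyte-rich spots 8 of the 9 genes were higher than in tubule spots of the same sections, and only Angpt1 did not pass the test. Across all genes 24.6% were higher and 29.7% lower in this comparison (edgeR quasi-likelihood test on summed UMIs with library as a block, 6 libraries, Benjamini-Hochberg adjusted p below 0.05). The median log2 difference was 0.78 over the 9 genes and -0.03 over all genes tested. Values below are levels in scaled CPM, then the fitted log2 difference with its standard error (SE).

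Vegfa (ENSMUSG00000023951, chromosome 17, 46016993 to 46032369, minus strand, GRCm38) stood at 157, 202, 147, 260, 292 and 192 scaled CPM in podocyte-rich spots and at 90.6, 92.4, 57.0, 97.0, 124 and 86.6 in tubule spots. The lowest podocyte-rich value, in 5m AS, was above the highest tubule value, in late treated, so the classes did not overlap. The log2 difference was 1.20 (SE 0.08, 2.29-fold, edgeR adjusted p 5.94e-08), and the gene was higher in 6 of 6 libraries.

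Kdr (ENSMUSG00000062960, chromosome 5, 75932827 to 75978458, minus strand) stood at 107, 118, 66.1, 127, 126 and 96.0 scaled CPM in podocyte-rich spots and at 53.9, 41.2, 23.2, 33.9, 36.6 and 37.0 in tubule spots. Again the classes did not overlap, and 5m AS was lowest in both. The log2 difference was 1.53 (SE 0.10, 2.89-fold, edgeR adjusted p 6.53e-08).

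Flt1 (ENSMUSG00000029648, chromosome 5, 147561604 to 147726011, minus strand), the decoy-type receptor, stood at 47.4, 31.2, 35.6, 60.7, 52.4 and 41.4 scaled CPM in podocyte-rich spots and at 34.2, 23.3, 26.1, 35.8, 37.2 and 29.0 in tubule spots. It was higher in podocyte-rich spots in every library, but the ranges of the classes overlapped. The log2 difference was 0.54 (SE 0.06, 1.46-fold, edgeR adjusted p 5.67e-06). Kdr therefore made up a larger share of the summed Kdr and Flt1 UMIs in podocyte-rich spots, 65.0% to 79.1% over the 6 libraries, than in tubule spots, 47.0% to 63.9%. Within each library the podocyte-rich share was the higher one, and the 2 exact 95% intervals did not overlap in any of them.

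Among the co-receptors Nrp2 (ENSMUSG00000025969, chromosome 1, 62703285 to 62818695, plus strand) stood at 13.0, 17.5, 15.8, 22.1, 25.9 and 16.7 scaled CPM in podocyte-rich spots and at 13.1, 10.5, 15.1, 13.5, 15.8 and 10.1 in tubule spots. WT and 5m AS showed next to no difference, and the other 4 libraries were 1.64- to 1.66-fold higher in podocyte-rich spots. The log2 difference was 0.52 (SE 0.11, edgeR adjusted p 0.00171). Nrp1 (ENSMUSG00000025810, chromosome 8, 128358604 to 128503363, plus strand) was near the limit of these data, with 5 to 31 UMIs in the podocyte-rich spots of a library. Its levels were 3.80, 1.86, 2.23, 4.58, 4.16 and 1.69 scaled CPM in podocyte-rich spots and 2.64, 0.992, 3.5, 1.74, 1.55 and 1.32 in tubule spots, and 5m AS went the other way from the rest. Its log2 difference of 0.72 (SE 0.26, edgeR adjusted p 0.0317) missed the threshold without WT (adjusted p 0.0515), 2m AS (0.0629), early treated (0.134) or late treated (0.157). The Nrp1 call thus needed each of these libraries. It was also lost with the podocyte threshold at 0.6 times (log2 difference 0.47, edgeR adjusted p 0.112).

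Angpt2 (ENSMUSG00000031465, chromosome 8, 18690263 to 18741562, minus strand), the antagonist ligand, had the largest difference of the 9 genes. It stood at 9.17, 11.2, 9.50, 16.7, 11.7 and 9.18 scaled CPM in podocyte-rich spots, from 30 to 102 UMIs a library, and at 1.88, 1.95, 4.50, 3.46, 2.27 and 2.09 in tubule spots. The classes did not overlap, and the log2 difference was 2.10 (SE 0.17, 4.28-fold, edgeR adjusted p 4.60e-07). Angpt1 (ENSMUSG00000022309, chromosome 15, 42424723 to 42676977, minus strand), the stabilising ligand, stood at 11.6, 9.30, 6.70, 8.18, 9 and 9.56 scaled CPM in podocyte-rich spots and at 11.3, 12, 5.47, 9.1, 10.2 and 12.1 in tubule spots. Here the classes overlapped throughout, with a log2 difference of -0.11 (SE 0.10, edgeR adjusted p 0.378).

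Tek (ENSMUSG00000006386, chromosome 4, 94739289 to 94874976, plus strand) stood at 40.9, 42.0, 25.9, 47.5, 40.7 and 36.2 scaled CPM in podocyte-rich spots and at 25.1, 20.9, 22.4, 22.4, 22.4 and 22.4 in tubule spots. The classes did not overlap, tubule levels hardly differed between libraries, and 5m AS was low in podocyte-rich spots. The log2 difference was 0.78 (SE 0.10, edgeR adjusted p 1.28e-05). Tie1 (ENSMUSG00000033191, chromosome 4, 118471191 to 118490061, minus strand) stood at 46.8, 40.5, 35.2, 38.1, 33.8 and 47.4 scaled CPM in podocyte-rich spots and at 27.7, 18.9, 23.4, 19.1, 20.4 and 23.8 in tubule spots. Its classes did not overlap, with a log2 difference of 0.87 (SE 0.07, edgeR adjusted p 4.78e-07).

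**Figure D1:**
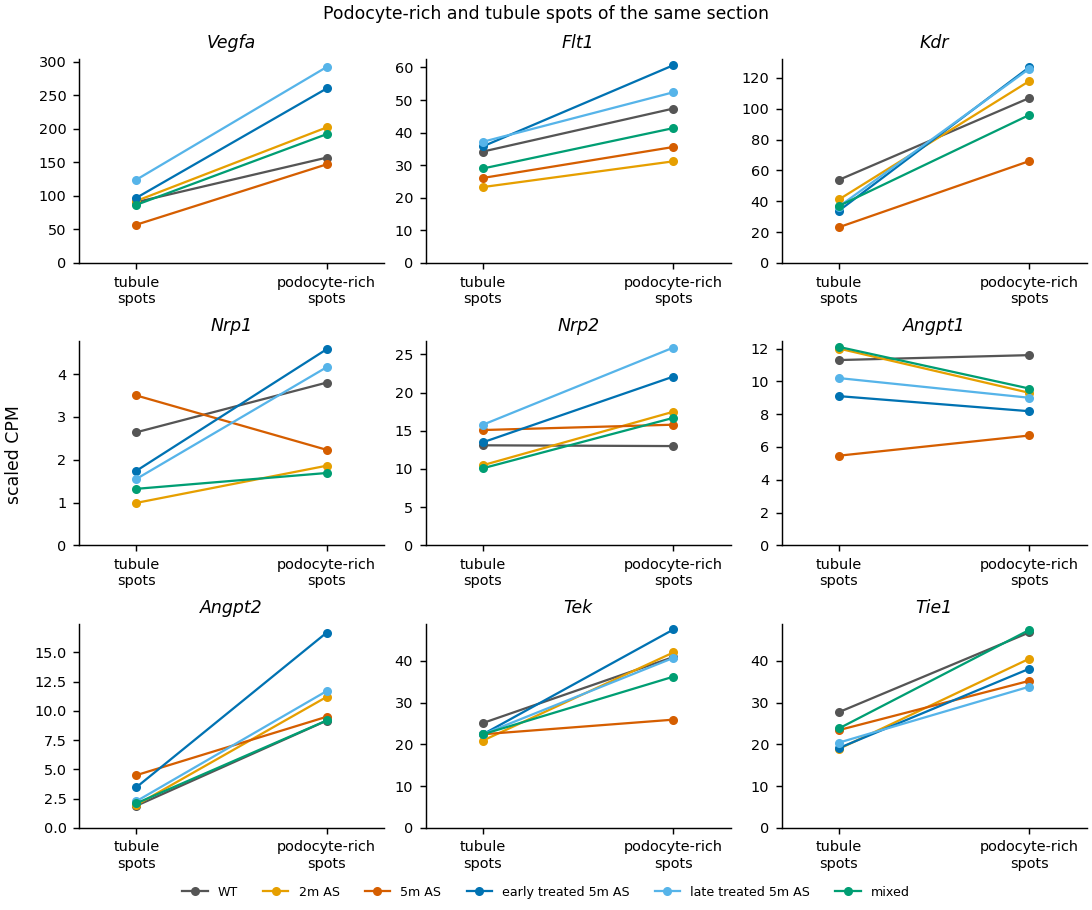
Level (scaled CPM, vertical axis from 0) of each gene in the tubule and podocyte-rich spots of the same section, 1 line per library and no error bars. All 6 lines go up for Vegfa, Flt1, Kdr, Angpt2, Tek and Tie1, while those of Angpt1 go both ways.

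Podocyte-rich spots also had higher levels of many genes listed for endothelial, mesangial, macrophage and smooth muscle cells. Of 18 endothelial genes 17 were higher in them, among them the junction gene Cldn5 (log2 difference 3.38), the glomerular endothelial gene Ehd3 (2.96), Emcn (1.56) and the transcription factor Sox17 (1.55), while Plvap, a gene of fenestrated capillary diaphragms, was at 0.02 and did not pass. Of 11 mesangial and pericyte genes 10 were higher, led by the renin gene Ren1 (3.04). The summed endothelial genes were 1.63- to 2.70-fold higher in podocyte-rich than in tubule spots over the 6 libraries, and the summed macrophage genes 1.22- to 1.64-fold. The 4 smooth muscle markers were all higher too (median log2 difference 1.66), and their sum was 2.32- to 4.46-fold higher. The part of these cell types in the differences of Kdr, Flt1, Nrp2, Tek, Tie1 and Angpt2 was not tested, and in spots fewer cells of a type and less RNA per cell cannot be told apart. Whether podocytes themselves added UMIs of listed genes such as Cldn5, and so raised the endothelial sums, was not tested either. Set against the endothelial genes of the same spots, Kdr gave 6.73, 9.31, 5.86, 7.83, 8.10 and 5.90 UMIs per 100 endothelial UMIs in podocyte-rich spots and 7.16, 6.91, 3.35, 5.63, 5.66 and 4.85 in tubule spots, so it was higher per endothelial UMI in 5 libraries and lower in WT. Flt1 gave 2.98, 2.47, 3.15, 3.74, 3.36 and 2.55 in podocyte-rich spots and 4.54, 3.90, 3.77, 5.94, 5.74 and 3.81 in tubule spots, lower in all 6. Tek gave 2.58, 3.32, 2.29, 2.92, 2.61 and 2.23 in podocyte-rich spots. In tubule spots Tek gave 3.33, 3.51, 3.24, 3.72, 3.46 and 2.93, so it was also lower in all 6. Tie1 gave 2.94, 3.2, 3.12, 2.35, 2.17 and 2.92 in podocyte-rich spots. In tubule spots Tie1 gave 3.68, 3.16, 3.37, 3.18, 3.16 and 3.12, so it was lower in 5 libraries and slightly higher in 2m AS.

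The other VEGF ligands and receptors were 4 higher and 1 lower of 5 in the same test. Pgf, a ligand of FLT1, was higher by a log2 difference of 2.39 (SE 0.23), at 2.01 to 4.43 scaled CPM in podocyte-rich spots. Flt4, the VEGFR3 gene, was higher by 0.81, Vegfc by 0.59 and Vegfd by 0.50, while Vegfb was lower at -0.34 (SE 0.07, edgeR adjusted p 0.00122). Of 24 further genes of the VEGF and TIE pathways 15 were higher and 3 lower. The largest differences were those of the semaphorin gene Sema3g (3.64), the angiopoietin gene Angpt4 (2.08), Sema3f (1.29) and Ptprb (1.27), the endothelial phosphatase that acts on TEK. A list of hypoxia-inducible genes also held genes of the hypoxia-inducible factors (HIF) themselves. Of its 17 tested genes 4 were higher and 6 lower. The vasodilator peptide gene Adm was at 2.08, Epas1, the HIF-2 alpha gene, at 0.99, Car9 at -0.59 and Bnip3 at -0.55. The hypoxia genes thus went both ways, with a median log2 difference of -0.01.

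With spots divided more finely by podocyte-marker share, leaving out those at or above the smooth muscle threshold, Vegfa and Kdr went up in each of the 4 steps between 5 bins in 5 of 6 libraries. The Vegfa medians over the libraries were 108 scaled CPM below 2 podocyte UMIs per 10000, then 122, 152, 212 and 328 at 20 and above. Those of Kdr were 41.6, 51.0, 73.3, 100 and 190 scaled CPM. Angpt2 had medians of 2.46, 3.94, 7.17, 10.2 and 16.6 scaled CPM and was higher in the top bin than in the lowest in 6 of 6 libraries, and Angpt1 was so in 1 of 6. The top bin held only 11 spots in WT, 18 in 2m AS and 15 in 5m AS. From the lowest bin to that of 10 to 20, where every library had at least 53 spots, Vegfa and Kdr still went up at each of the 3 steps in 5 of 6 libraries.

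**Figure D2:**
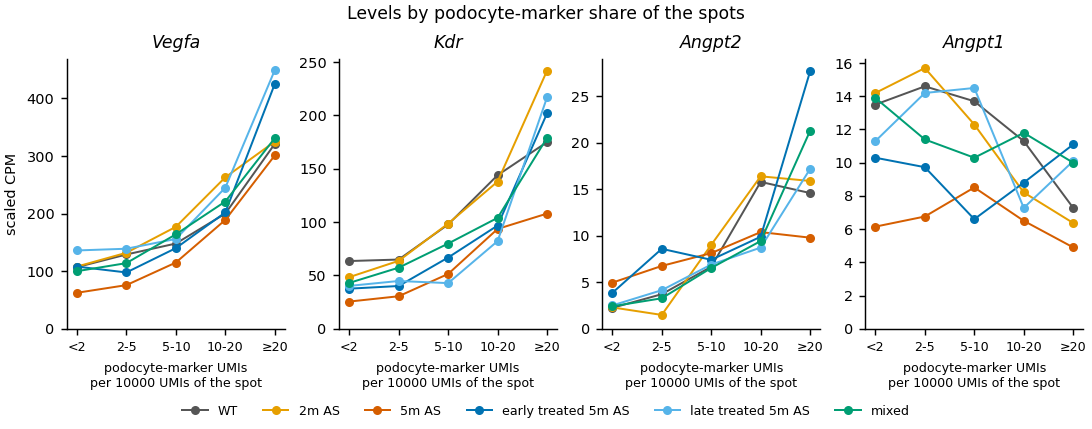
Level (scaled CPM, vertical axis from 0) of Vegfa, Kdr, Angpt2 and Angpt1 in spots binned by podocyte-marker UMIs per 10000, 1 line per library and no error bars. Vegfa medians go from 108 to 328 scaled CPM and Kdr from 41.6 to 190, while Angpt1 shows no common course.

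Over 42 sums (7 spot classes in each of 6 libraries, log2 levels centred on the library mean) the genes most like Vegfa among 6508 included Kdr (Pearson r 0.961), Ehd3 (0.944), the podocyte gene Nphs1 (0.932) and Igfbp5 (0.931). Those most like Kdr included Vegfa (0.961), Cd300lg (0.954), Ehd3 (0.952) and Emcn (0.943), and the last 2 are endothelial genes of the list above. These sums share sections and spot classes chosen by podocyte genes, so the correlations are descriptions.

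In smooth muscle-rich spots (at least 8 UMIs of Myh11, Acta2, Tagln and Cnn1 per 10000 and under the podocyte threshold, 27 to 161 spots a library) 5 of the 9 genes were higher than in tubule spots, against 19.3% of all genes higher and 24.6% lower. Angpt2 ranged from 4.33 to 12.5 scaled CPM there, with a log2 difference of 1.60 (SE 0.23, edgeR adjusted p 7.82e-06) from 5 to 25 UMIs a library. Nrp2, which was modest in podocyte-rich spots, ranged from 19.8 to 42.2 scaled CPM and was higher by a log2 difference of 1.08 (SE 0.13, edgeR adjusted p 3.61e-07). Tie1 was higher by 1.05 (SE 0.10), Tek by 0.47 (SE 0.13) and Flt1 by 0.29 (SE 0.10), the last one missing the threshold without WT (edgeR adjusted p 0.0518). Vegfa (-0.06, SE 0.08) and Kdr (-0.05, SE 0.10), both called higher in podocyte-rich spots, did not pass, nor did Nrp1 and Angpt1. Pgf (3.27) and Angpt4 (4.46) were again higher. In these spots 8 of 8 fibroblast genes, 17 of 18 endothelial genes, 10 of 11 mesangial and pericyte genes, 10 of 10 macrophage genes and 8 of 8 podocyte markers were also higher, and their part was not tested.

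Within the tubule spots Angpt1 was the gene of the 9 that differed most between segments. Segments were called by the highest share of their marker genes. In early proximal tubule spots Angpt1 stood at 12, 13.6, 5.66, 8.24, 11.1 and 14.6 scaled CPM. In late proximal tubule spots it stood at 5.36, 3.71, 3.66, 5.14, 5.42 and 4.05, and in thick ascending limb spots at 8.12, 7.17, 4.51, 2.98, 6.69 and 5.86. In distal convoluted tubule spots it stood at 12.9, 20.1, 9.34, 18.5, 13.8 and 17.7, and in collecting duct spots at 17.5, 18.9, 9.28, 17.3, 15.9 and 15.5. Both distal segments were thus above the late proximal tubule and the thick ascending limb in every library, and the 5m AS value was the lowest or next to lowest in each segment.

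Against the mean of the other segments Angpt1 was higher in the collecting duct (log2 difference 0.96, SE 0.13, edgeR adjusted p 2.11e-06) and the distal convoluted tubule (0.91, SE 0.13, adjusted p 1.41e-06). It was lower in the late proximal tubule (-1.30, SE 0.14, edgeR adjusted p 1.17e-08) and the thick ascending limb (-0.81, SE 0.15, adjusted p 0.000619). In the collecting duct 4 of the 9 genes were higher, against 13.7% of all genes higher and 16.5% lower. Beside Angpt1 these were Tek (0.28), Nrp2 (0.29) and Angpt2 (0.53, SE 0.18, edgeR adjusted p 0.0297). The Angpt2 call was lost without any 1 of 2m AS, 5m AS, early treated or late treated, with adjusted p of 0.0511 to 0.18, and the Nrp2 call without late treated (0.128) or mixed (0.0641). Of 18 endothelial genes 6, of 10 macrophage genes 7, of 8 podocyte markers 2 and of 4 smooth muscle markers 1 were also higher in the collecting duct and none lower, and their part was not tested. In the distal convoluted tubule 2 genes were higher, Angpt1 and Vegfa (0.22, SE 0.06, edgeR adjusted p 0.005), against 17.6% of all genes higher and 20.4% lower. There 5 of 18 endothelial genes and 3 of 4 smooth muscle markers were higher and 6 of 10 macrophage genes lower, and their part was not tested.

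In the late proximal tubule 5 genes were lower and none higher, against 25.1% of all genes lower and 27.2% higher. Beside Angpt1 they were the endothelial receptor genes Tie1 (-0.23), Flt1 (-0.21), Kdr (-0.18) and Tek (-0.14). The Tek call was lost without WT, 2m AS, early treated or late treated (edgeR adjusted p 0.0569 to 0.0988), with no filter on low counts (0.0924) and in DESeq2 (0.0612), and the Kdr call without 2m AS (0.0974). In the same comparison 12 of 18 endothelial genes were lower and 0 higher (median log2 difference -0.18), 7 of 10 macrophage genes lower and 1 higher, and 4 of 4 smooth muscle markers and 5 of 8 podocyte markers lower, and their part was not tested. In the thick ascending limb only Angpt1 was called, against 3.70% of all genes higher and 2.17% lower, and 8 of 10 macrophage genes were higher there. In the early proximal tubule none of the 9 passed, against 18.2% of all genes higher and 16.8% lower. There Angpt1 was at 0.23 (SE 0.10, edgeR adjusted p 0.0795). It passed without 5m AS (0.0487) or early treated (0.0197) and, with all libraries, with no filter on low counts (0.0361). It was the 1 gene of the 9 with an unadjusted p below 0.05. DESeq2 also called none of the 9 in that segment.

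**Figure D3:**
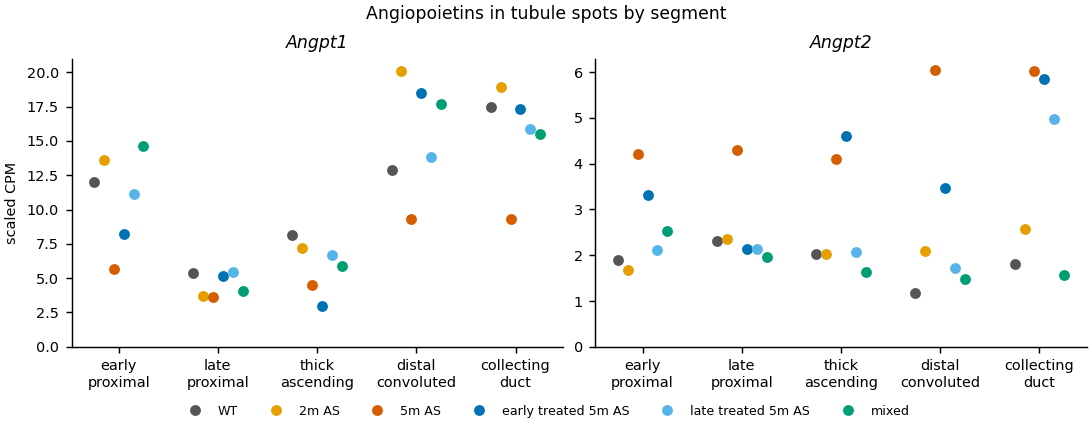
Level (scaled CPM, vertical axis from 0) of Angpt1 and Angpt2 in tubule spots of 5 segments, 1 point per library and no error bars. Angpt1 reaches 17.5 in WT collecting duct spots and 5.36 in WT late proximal tubule spots, and the 5m AS points of Angpt2 lie at 4.11 to 6.04.

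Between groups there was 1 library each, so the values below are ratios of levels with exact 95% intervals that cover counting error only, without a test. PCR copies are removed by UMIs, but differences between animals and sections are not in the intervals. A gene counted as measured at 5 scaled CPM or more in 1 of the 2 libraries and as apart at 1.5-fold or more. Nrp1 was below that level in all whole sections and was left out of the counts.

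Over whole sections 5m AS had less Vegfa, Kdr and Angpt1 and more Angpt2 than WT. Vegfa stood at 99.7, 93.7, 63.5, 108, 133 and 91.8 scaled CPM in the 6 libraries, and 5m AS was the lowest. The 5m AS level was 0.637 of that of WT (95% interval 0.612 to 0.663). Kdr stood at 58.8, 43.2, 26.4, 42.0, 44.4 and 40.7 scaled CPM, with WT highest and 5m AS lowest, a ratio of 0.449 (0.423 to 0.476). Angpt1 stood at 11.8, 11.6, 5.48, 8.55, 9.82 and 11.2 scaled CPM, with WT, 2m AS and mixed close together, and its 5m AS ratio was 0.464 (0.407 to 0.529). Angpt2 stood at 2.63, 2.24, 5.03, 5.33, 3.46 and 2.71 scaled CPM, from 165 to 307 UMIs, with 5m AS and early treated high. Its ratio of 5m AS to WT was 1.91 (1.58 to 2.31).

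Thus 1 of 8 measured genes was higher and 3 were lower in 5m AS than in WT, against 11.9% of all measured genes higher and 12% lower. Without TMM scaling the median log2 ratio of all genes in this comparison moved from -0.12 to 0.29, and the 1316 genes higher and 1329 lower became 2698 and 413. The median moved likewise to 0.36 for early treated and 0.34 for late treated against WT, and to 0.47 for 5m AS against 2m AS. On that plain CPM scale the log2 ratio of Vegfa was -0.25, no longer apart, those of Kdr and Angpt1 were -0.76 and -0.71, and that of Angpt2 was 1.33. With each spot given equal weight the log2 ratios were -0.20 for Vegfa, -0.63 for Kdr, -0.50 for Angpt1 and 1.31 for Angpt2.

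The other genes were less than 1.5-fold from WT in 5m AS, and the log2 ratios of Tek and Tie1 changed sign without TMM scaling, from -0.36 to 0.03 and from -0.34 to 0.06. Flt1 stood at 36.1, 22.5, 26.5, 36.5, 36.8 and 28.8 scaled CPM, with 2m AS lowest. Tek stood at 27.7, 21.6, 21.5, 24.0, 23.5 and 22.4, Tie1 at 30.5, 19.4, 24.2, 21.3, 21.8 and 25.1, and Nrp2 at 14.0, 10.7, 15.1, 15.0, 17.2 and 10.5. WT was the highest library for Tek and Tie1, and the remaining libraries of Tek lay between 21.5 and 24.0. Nrp1 stood at 2.97, 0.95, 3.02, 1.96, 1.83 and 1.15 scaled CPM, from 70 to 203 UMIs.

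**Figure D4:**
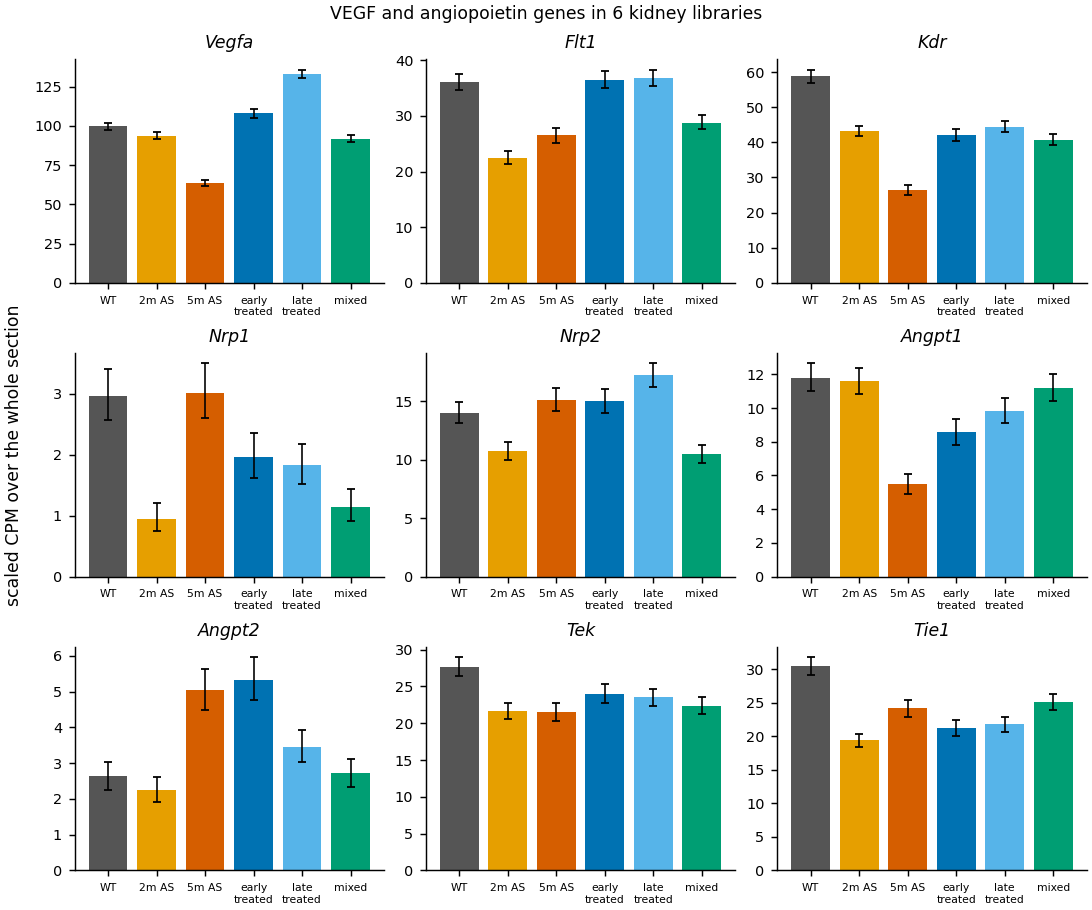
Level (scaled CPM, vertical axis from 0) of each gene over the whole section of each library, with exact 95% Poisson intervals for counting error. The 5m AS bars are lowest for Vegfa (63.5), Kdr (26.4) and Angpt1 (5.48), and the early treated (5.33) and 5m AS (5.03) bars are highest for Angpt2.

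At 2 months 2 of 7 measured genes were lower than in WT, against 7.78% of all genes higher and 8.28% lower. These were the receptor genes Flt1, at 0.624 of WT (0.586 to 0.664), and Tie1, at 0.636 (0.594 to 0.681). The podocyte markers, with 5 of 8 lower, and the endothelial genes, with 5 of 17 measured lower, moved the same way in 2m AS, and their part was not tested. From 2m AS to 5m AS, which differ by age, Angpt2 was 2.24-fold higher (1.85 to 2.73), and Kdr (0.612, 0.575 to 0.650) and Angpt1 (0.471, 0.413 to 0.535) were lower. These were 1 higher and 2 lower of 8, against 16.9% of all genes higher and 19.6% lower. Without TMM scaling the log2 ratio of Kdr was -0.21 and no longer apart, and 4693 genes were higher and 568 lower, where with it 1876 were higher and 2171 lower.

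The mixed library, the other one without an AS label, had 0 of 7 genes apart from WT, against 7.87% of all genes higher and 8.61% lower. Its Kdr ratio to WT was 0.692 (0.659 to 0.726), so a library that held WT tissue also lay below WT for this gene. Early treated had 1 of 8 genes apart from WT, Angpt2 at 2.02-fold (1.68 to 2.45), against 9.07% of all genes higher and 10.4% lower. Late treated had 0 of 7 apart from WT, against 7.19% higher and 11.6% lower.

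Both treated libraries had more Vegfa, Kdr and Angpt1 than untreated 5m AS. In early treated the ratios were 1.69 (1.63 to 1.76) for Vegfa, 1.59 (1.49 to 1.69) for Kdr and 1.56 (1.35 to 1.80) for Angpt1. These were 3 higher and 0 lower of 8, against 3.98% of all genes higher and 4.86% lower. In late treated the ratios were 2.10 (2.02 to 2.18) for Vegfa, 1.68 (1.58 to 1.79) for Kdr and 1.79 (1.57 to 2.05) for Angpt1, 3 higher and 0 lower of 8, against 7.94% higher and 11.1% lower. Both comparisons share the 5m AS library. Angpt2 was the gene on which the treated libraries were apart, 1.54-fold higher in early than in late treated (1.29 to 1.84), 1 of 8 genes against 3.70% of all genes higher and 2.02% lower.

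Other cell types moved between these libraries too. Over whole sections the summed podocyte markers stood at 151, 91.5, 171, 249, 288 and 161 scaled CPM, highest in the treated libraries, and 6 of 6 early proximal tubule markers were lower in 5m AS than in WT. The summed endothelial genes stood at 856, 617, 708, 710, 742 and 810 scaled CPM, the macrophage genes at 143, 190, 1202, 735, 537 and 261, and the fibroblast genes at 134, 351, 1016, 608, 446 and 142. The part of these shifts in the ratios was not tested.

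Per 100 UMIs of the 18 endothelial genes, a measure that does not depend on scaling, Kdr gave 6.87, 6.99, 3.73, 5.91, 5.99 and 5.02 UMIs over whole sections. Flt1 gave 4.22, 3.65, 3.74, 5.14, 4.97 and 3.55, Tek 3.23, 3.5, 3.03, 3.37, 3.16 and 2.76, and Tie1 3.56, 3.14, 3.41, 3, 2.94 and 3.1. The 5m AS library was thus lowest for Kdr and within the range of the others for Flt1, Tek and Tie1. Kdr made up 61.9%, 65.7%, 49.9%, 53.5%, 54.7% and 58.6% of the Kdr and Flt1 UMIs. The 5m AS share (exact 95% binomial interval 48.2 to 51.7) lay below the intervals of the other 5 libraries, and both treated shares lay below those of WT and mixed.

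The balance of the angiopoietins can be read the same way. Angpt2 made up 18.2%, 16.1%, 47.8%, 38.4%, 26.0% and 19.5% of the Angpt1 and Angpt2 UMIs over whole sections. WT, 2m AS and mixed were low, 5m AS was high (exact 95% binomial interval 43.8 to 51.8), and early treated (35.0 to 41.8) and late treated (23.2 to 29.1) lay between them, with no overlap between 5m AS, early treated, late treated and the 3 low libraries. In tubule spots the shares were 14.3%, 14.0%, 45.1%, 27.6%, 18.2% and 14.7%, in the same order of libraries, with the late treated interval (15.1 to 21.7) now overlapping that of WT. In podocyte-rich spots they were 44.1%, 54.5%, 58.6%, 67.1%, 56.5% and 49.0%, with overlapping intervals for most pairs and 5m AS not the highest.

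Within single tubule segments the 5m AS share was 42.6% in early proximal (93 Angpt1 and 69 Angpt2 UMIs), 53.9% in late proximal, 47.7% in thick ascending limb, 39.3% in distal convoluted and 39.4% in collecting duct spots. The WT shares in the same order were 13.7%, 30.0%, 20%, 8.33% and 9.38%. The 5m AS share was above that of WT in all 5 segments, and the intervals met only in the late proximal tubule. The distal convoluted share rests on 28 UMIs in 5m AS. In early proximal spots the 5m AS interval was 34.9 to 50.6 and that of WT 10.7 to 17.2.

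**Figure D5:**
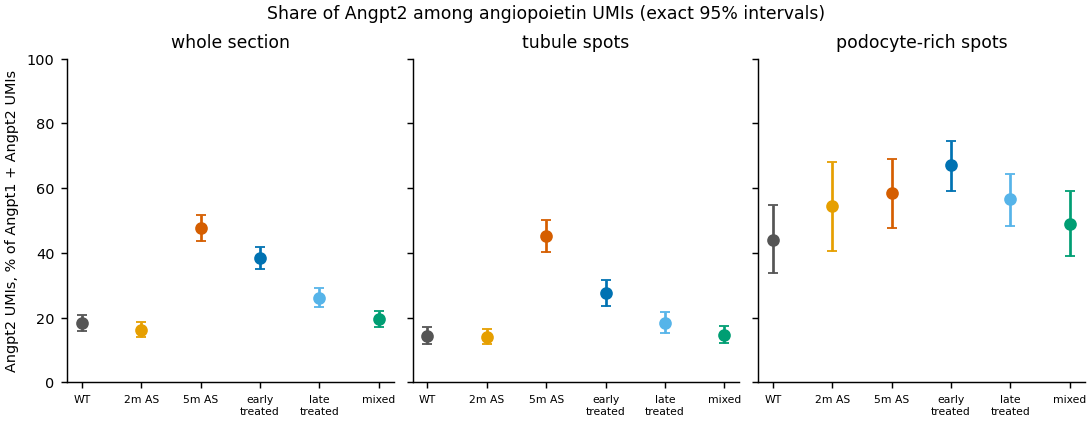
Share of Angpt2 in the summed Angpt1 and Angpt2 UMIs (percent, vertical axis from 0 to 100) with exact 95% binomial intervals, per library, over whole sections, tubule spots and podocyte-rich spots. Whole-section points go from 16.1% in 2m AS to 47.8% in 5m AS, while podocyte-rich points lie between 44.1% and 67.1%.

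Split by spot class, Vegfa was lowest in 5m AS of the 6 libraries in both classes, but only in tubule spots was it apart from WT. There 0 of 7 measured genes were higher and 3 lower than in WT, against 14.5% of all genes higher and 8.43% lower: Vegfa at 0.630 (0.599 to 0.662), Kdr at 0.431 (0.400 to 0.463) and Angpt1 at 0.485 (0.415 to 0.566). Angpt2, at 1.88 and 4.50 scaled CPM and so under the level for the count, had a ratio of 2.39 (1.87 to 3.06). In podocyte-rich spots Vegfa was at 0.936 of WT (0.844 to 1.04), where WT was itself next to lowest, and at 0.725 of 2m AS (0.649 to 0.811), and Angpt2 at 1.04 (0.673 to 1.60). There 0 of 8 genes were higher and 3 lower, against 15.1% of all genes higher and 10.8% lower: Kdr at 0.618 (0.537 to 0.711), Tek at 0.632 (0.503 to 0.792) and Angpt1 at 0.576 (0.366 to 0.898). On the plain CPM scale these 3 log2 ratios were -0.44, -0.41 and -0.54, all under 1.5-fold. On that scale Vegfa was at -0.40 in tubule spots, also under 1.5-fold, and at 0.16 in podocyte-rich spots.

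In podocyte-rich spots early treated had 5 of 8 genes higher than 5m AS and 0 lower, against 6.50% of all genes higher and 7.32% lower. These were Vegfa (1.77, 1.63 to 1.93), Kdr (1.92, 1.69 to 2.19), Flt1 (1.71, 1.43 to 2.04), Tek (1.83, 1.49 to 2.26) and Angpt2 (1.76, 1.24 to 2.51). Late treated had 4 of 8 higher and 0 lower, against 8.59% higher and 10.6% lower, namely Vegfa (1.99, 1.83 to 2.16), Kdr (1.91, 1.69 to 2.16), Tek (1.57, 1.28 to 1.94) and Nrp2 (1.64, 1.26 to 2.14). These ratios moved with how podocyte-rich the spots were. The bin at 20 and above held 15 spots of 5m AS, 122 of early treated and 139 of late treated. At 5 to 10 and 10 to 20 podocyte UMIs per 10000 Kdr stood at 51.4 and 93.6 scaled CPM in 5m AS, at 66.8 and 96.8 in early treated and at 42.8 and 82.2 in late treated. So late treated lay below 5m AS for Kdr in both bins, early treated was close to it in the upper one, and only at 20 and above were both well above it, at 202 and 217 against 108. In the 3 bins from 5 up Vegfa stood at 115, 189 and 301 scaled CPM in 5m AS. It stood at 140, 202 and 425 in early treated and at 156, 245 and 449 in late treated. Each treated library was thus above 5m AS for Vegfa in every such bin, but by a smaller ratio than over the whole class. At 5 to 10 and 10 to 20 Angpt2 was lower in early treated than in 5m AS. It stood there at 7.42 and 9.9 against 8.14 and 10.4 scaled CPM, from 9 UMIs in each early treated bin. Flt1 and Tek in early treated, and Nrp2 and Tek in late treated, were above 5m AS in each of the 3 bins from 5 up, with Tek in late treated at 23.5 against 22.6 in the lowest of them.

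The summed podocyte markers of podocyte-rich spots stood at 934, 1066, 927, 1670, 1820 and 1163 scaled CPM and the endothelial genes at 1590, 1266, 1128, 1624, 1559 and 1625, so both were lowest in 5m AS and their part in these ratios was not tested.

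In tubule spots early treated had 2 of 7 genes higher than 5m AS and 0 lower, against 4.73% of all genes higher and 6.48% lower, namely Vegfa (1.70, 1.62 to 1.79) and Angpt1 (1.66, 1.40 to 1.97). Late treated had 3 of 7 higher and 0 lower, against 9.57% higher and 12.2% lower, namely Vegfa (2.18, 2.07 to 2.29), Kdr (1.58, 1.46 to 1.71) and Angpt1 (1.87, 1.59 to 2.20). Angpt2 was at 0.770 of 5m AS in early treated (0.614 to 0.965) and at 0.505 in late treated (0.392 to 0.647).

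The step from tubule to podocyte-rich spots was itself smallest in 5m AS for 4 of the 9 genes, Angpt2, Tek, Tie1 and Nrp1. WT had the smallest step for 3 genes and 2m AS for 2. For Angpt2 the podocyte-rich level was 4.87, 5.71, 2.11, 4.82, 5.15 and 4.40 times the tubule level, and the 5m AS interval (1.52 to 2.89) lay below those of the other 5 libraries. For Tek the ratios were 1.63, 2.01, 1.15, 2.12, 1.82 and 1.62, with a 5m AS interval of 0.958 to 1.38. For Tie1 they were 1.69, 2.15, 1.51, 2, 1.66 and 1.99. Its 5m AS interval (1.28 to 1.76) overlapped those of all the other 5 libraries, such as WT (1.45 to 1.95). Nrp1 was at 0.639 in 5m AS (0.322 to 1.15), from 12 UMIs in podocyte-rich spots. The Vegfa ratios were 1.73, 2.19, 2.57, 2.68, 2.35 and 2.22, lowest in WT. The same ratio of the summed podocyte markers was 15.2, 25.2, 13.7, 26.1, 23.5 and 19.5, and that of the endothelial genes 2.11, 2.12, 1.63, 2.70, 2.41 and 2.13, both lowest in 5m AS, and their part was not tested.

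Among the other genes of the VEGF and TIE pathways 4 of 22 measured were at least 1.5-fold higher and 3 lower in 5m AS than in WT, against the 11.9% of all genes higher and 12% lower given above, so the count of lower genes was near the share over all genes. Those furthest apart were Socs3, a feedback inhibitor of cytokine signalling, at 15.5-fold (12.3 to 19.7), the protease gene Adamts1 at 3.17-fold (3.02 to 3.32), Sema3c at 2.52-fold (2.37 to 2.69) and Esm1, an endothelial VEGF response gene, at 0.328 (0.305 to 0.352). Esm1 stood at 48.9, 39.1, 16.0, 24.7, 28.7 and 27.2 scaled CPM, lowest in 5m AS. Of the 16 measured genes of the hypoxia list 1 was higher, Egln3 at 2.34-fold (2.01 to 2.74). In the same list 3 were lower, Car9 at 0.556, Pdk1 at 0.599 and Bnip3 at 0.655. Of the other VEGF ligands and receptors 0 of 3 measured were apart.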

How the data were processed

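The authors deposited 1 filtered matrix of UMI counts per library (genes by spots under tissue), made with Space Ranger 1.2.1 or 1.3.1 per the file headers and with mm10 per the submitters' processing notes. Aligner and annotation: not given in the sources used here. Spots under 500 UMIs were left out. The members and lists were chosen with earlier results of these data known, and the thresholds of the spot classes were set after looking at the marker distributions. Counts were summed per library and spot class and tested with edgeR 4.0.16 in R 4.3.3 (TMM, quasi-likelihood, library as a block since both classes come from the same section, Benjamini-Hochberg over all genes, threshold 0.05, filterByExpr). Between libraries, 1 per group, levels were compared as ratios with exact 95% intervals (scipy 1.17.1, pandas 2.3.3). Named genes were all 9 members, then the 5 genes most like Vegfa and Kdr (1 of each is not reported here), and up to 4 genes of each list by size of difference. Plvap and Vegfb, single exceptions of their lists, were named after their values were seen. Alternatives were DESeq2 1.42.0, other scalings, filters, thresholds and leaving out each library. No doublet caller was run, since spots hold several cells. The test was tested on simulated data.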

Additional observations from a re-analysis of the deposited data

How the results depend on the processing

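Each group was 1 library, so the ratios between libraries carry no animal or section spread, and their direction can rest on the scaling. All 17 whole-section ratios that were apart had the same direction under each of 4 other scalings, with 15 still apart on plain CPM, 17 with median-of-ratios factors, 16 without mitochondrially encoded genes and 12 with equal spot weights. In podocyte-rich spots 15 of 20 were still apart on plain CPM, 18 with the threshold doubled and 16 in the highest 5% of spots, and in tubule spots 8 of 12 on plain CPM. No tested difference of the 9 genes that passed the threshold changed sign under any alternative, while some that did not pass did, such as Angpt1 in podocyte-rich spots (-0.22 to 0.01) and Kdr in smooth muscle-rich spots (-0.10 to 0.03). The alternatives were not run for the named genes outside the 9. Nrp1, at 5 to 31 UMIs a library in podocyte-rich spots, is limited by depth.

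Where the number of genes apart moved, equal spot weights gave 1 for 2m AS, 2 for early treated and 3 for late treated against WT over whole sections. Plain CPM gave 2 for late treated against WT and 5 for 5m AS against 2m AS. In podocyte-rich spots plain CPM gave 0 for 2m AS, 0 for 5m AS, 7 for early treated and 4 for late treated against WT, and 1 for 5m AS against 2m AS. The doubled threshold gave 5 for 5m AS and 1 for mixed against WT, and 1 for early against late treated. The highest 5% of spots gave 5 for early treated, 4 for late treated and 1 for mixed against WT, 1 for 5m AS against 2m AS and 1 for early against late treated. In tubule spots plain CPM gave 2 for 2m AS, 0 for early treated and 1 for late treated against WT. The cause was not tested.

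Without the library block, that is without the pairing of spot classes by section, fewer genes were called. For podocyte-rich spots 1497 were higher and 800 lower, where 3572 and 4302 were called with it, and for smooth muscle-rich spots 1380 and 1053, where 2777 and 3539 were called. For the early proximal tubule 273 and 518 were called, for the late proximal tubule 1277 and 1101, for the thick ascending limb 75 and 12, for the distal convoluted tubule 994 and 542, and for the collecting duct 543 and 55. This fit lost Nrp1 (edgeR adjusted p 0.2) and Nrp2 (0.0512) in podocyte-rich spots and Flt1 (0.219) in smooth muscle-rich spots. It also lost Flt1 (0.368), Kdr (0.57), Tek (0.278) and Tie1 (0.201) in the late proximal tubule, Vegfa (0.45) in the distal convoluted tubule, and Nrp2 (0.315) and Angpt2 (0.384) in the collecting duct. Leaving out single libraries gave 313 to 481 genes higher and 169 to 280 lower in the thick ascending limb, the fewest without 2m AS. The lower calls there were 193 without late treated and 189 without mixed, where 293 were called with all libraries.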
